A study of Homo sapiens with 12 samples.

Results

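A set of 10 immunoglobulin superfamily adhesion genes was followed in CD44 WT and CD44 KO cells of the breast cancer lines Hs578T and MDA-MB-231. The members were taken by symbol from the ICAM, VCAM, ALCAM, MCAM, L1CAM, CADM, nectin and JAM families: ICAM1, VCAM1, ALCAM, MCAM, L1CAM, CADM1, NECTIN2, NECTIN3, F11R and JAM3. They are 10 of the 58381 genes in the count table, and all 10 passed the filter on low counts that 15836 genes passed. Hs578T and MDA-MB-231 are human triple negative breast cancer lines, and CD44 is a cell surface receptor for hyaluronan. The 4 groups of 3 RNA-seq libraries were Hs578T CD44 WT, Hs578T CD44 KO, MDA-MB-231 CD44 WT and MDA-MB-231 CD44 KO. Cells of every group carried an inducible Cas9. The CD44 KO cells had received guide RNAs to exons of CD44 and were sorted as CD29+ CD44- populations, so they are mixed pools and not single clones, while the CD44 WT cells had received transfection reagent alone and were sorted as CD29+ CD44+. All cells were kept in low serum before RNA was taken.

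Immunoglobulin superfamily adhesion molecules are membrane proteins that bind cells to each other through immunoglobulin-like domains outside the cell. Some bind a copy of themselves on the next cell, as ALCAM, L1CAM and CADM1 do, and others bind integrins, as ICAM1 and VCAM1 do on endothelium that has met inflammatory cytokines. Their cytoplasmic tails attach to the actin or spectrin skeleton through ankyrins, band-4.1 proteins and PDZ proteins, and several of them are cut from the surface by metalloproteases. The comparisons asked which of these genes differed in RNA level between CD44 KO and CD44 WT cells in each line, and whether the change differed between the lines.

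The libraries held 10257586 to 19725543 assigned read pairs. CD44 itself fell from 507 ± 17.6 to 27.3 ± 2.06 CPM (read counts scaled for library depth, SD, n = 3) in Hs578T, and in MDA-MB-231 it went down from 362 ± 1.70 to 34.2 ± 5.40 CPM. Both lines expressed VIM, ERBB2 and keratins KRT8 and KRT18. PGR was at 0 in all 12 libraries, and CDH1 and ESR1 averaged below 1 CPM in every group. EPCAM stood at 17.6 ± 4.28 CPM in MDA-MB-231 CD44 WT cells and 0.0556 ± 0.0482 CPM in Hs578T CD44 WT cells. The keratin KRT19 also differed, at 280 ± 19.6 CPM in MDA-MB-231 CD44 WT cells and 0.237 ± 0.0906 CPM in Hs578T CD44 WT cells. Within a group, counts of pairs of libraries differed by a chi-square of 4.66 to 32.5 per gene, and the 2 highest values, 21.2 and 32.5, were both pairs with MDA-MB-231 CD44 WT replicate 1. Hs578T CD44 WT replicate 3 lay 15.2 and 10.0 from the other libraries of its group, which were 4.66 from each other. MDA-MB-231 CD44 KO replicate 1 lay 12.8 and 16.2 from the others of its group, which were 6.16 from each other. Results of the 10 members whose call changes without MDA-MB-231 CD44 WT replicate 1 or Hs578T CD44 WT replicate 3 are given both ways. One MDA-MB-231 CD44 WT library carries no replicate number in the count table and is called unnumbered here. The sources used here do not say whether replicates were grown apart, so the p-values measure the spread between these libraries, which may be technical.

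In Hs578T, VCAM1 and ALCAM rose and MCAM fell in CD44 KO cells. In MDA-MB-231, MCAM rose and CADM1 fell. MCAM thus moved in opposite directions in the lines. A gene was called when its adjusted p from edgeR's quasi-likelihood test (Benjamini-Hochberg over all genes tested) was at most 0.01. By that rule 3 of the 10 members were called in Hs578T, where 7.51% of all genes tested were called, and 2 of the 8 members with a value were called in MDA-MB-231, where 4.62% of all genes were called. The members were chosen with earlier results of these data known, so these shares are a description. VCAM1 and JAM3 held at most 3 counts in any MDA-MB-231 library, and no fold change is given for them there. In Hs578T the members had a median log2 change of 0.20, and all genes tested one of -0.0016. The medians in MDA-MB-231 were 0.25 for the members and -0.0096 for all genes tested. For 4 of 8 members the change differed between the lines by a test of the difference itself, where 4.12% of all genes tested were called, and 2 of these had the higher change in Hs578T (2.33% of all genes) and 2 in MDA-MB-231 (1.79%). In bulk RNA, fewer expressing cells and less RNA per cell cannot be told apart. Without Hs578T CD44 WT replicate 3, the Hs578T count was 6, with CADM1, JAM3 and NECTIN3 added. The VCAM1 call was lost with DESeq2 and in 6 of the 12 fits that left out 1 library. The Hs578T calls of ALCAM and MCAM were held in all of these fits.

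**Figure D1:**
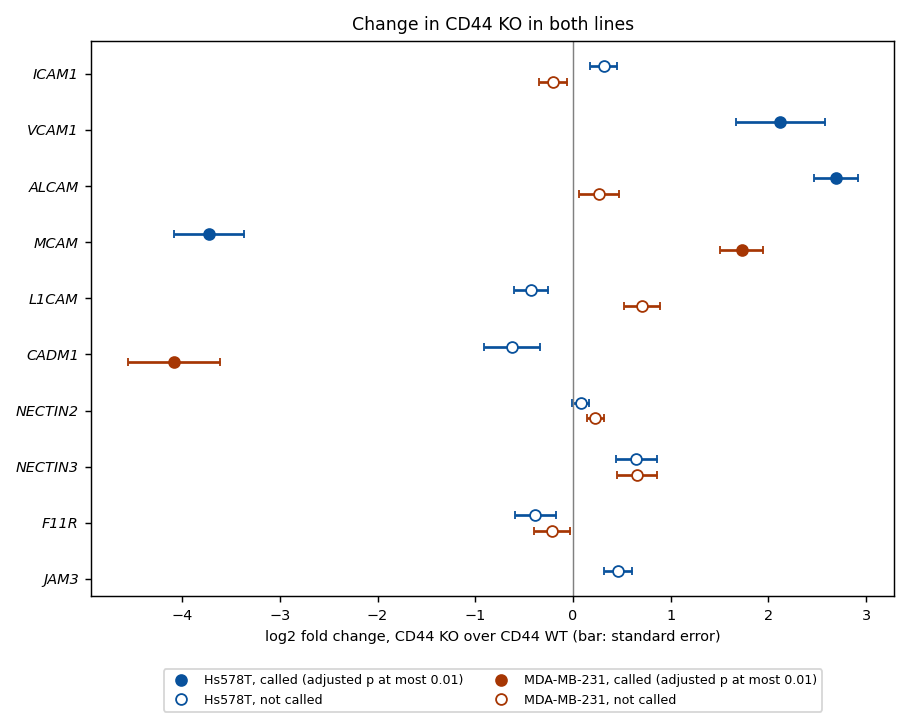
Log2 fold change of each adhesion gene in CD44 KO over CD44 WT cells (x axis; bars are standard errors, n = 3 against 3 libraries) in Hs578T (blue) and MDA-MB-231 (orange), with called genes filled; VCAM1 and JAM3 have no MDA-MB-231 point. MCAM is the gene called on both sides of 0, at -3.72 in Hs578T and 1.73 in MDA-MB-231.

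ICAM1 and VCAM1 are ligands of integrins and guide leukocytes through vessel walls. VCAM1 (ENSG00000162692.10, chr1:100719742-100739045, + strand, GRCh38) was low in Hs578T and had no count in MDA-MB-231. Its level was 4.16, 2.71 and 0.677 CPM in Hs578T CD44 WT replicates 1, 2 and 3, and 7.30, 16.2 and 9.89 CPM in CD44 KO replicates 1, 2 and 3. Every CD44 KO library lay above every CD44 WT library. The change was 4.35-fold higher, or 2.12 on the log2 scale (SE 0.45, edgeR adjusted p = 0.00911). The call was lost with DESeq2 (adjusted p = 0.0564) and in 6 of the 12 fits that left out 1 library: CD44 WT replicate 2 or CD44 KO replicate 1, 2 or 3 of Hs578T, or CD44 WT replicate 3 or CD44 KO replicate 2 of MDA-MB-231, with an adjusted p of up to 0.0560 and log2 changes of 1.69 to 2.71 over the 12 fits. All 6 MDA-MB-231 libraries had 0 VCAM1 counts. With the MDA-MB-231 group put at a limit of 3 counts in all, VCAM1 was at least 30.9-fold higher in Hs578T than in MDA-MB-231 among CD44 WT cells (101 counts against 0), and at least 158-fold higher among CD44 KO cells (470 counts against 0). These bounds cover counting error only.

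ICAM1 (ENSG00000090339.8, chr19:10270835-10286615, + strand) was high in Hs578T and lower in MDA-MB-231, and was called in neither line. In Hs578T it measured 117, 125 and 121 CPM in CD44 WT and 147, 168 and 135 CPM in CD44 KO replicates 1, 2 and 3. The CD44 KO libraries were all above the CD44 WT libraries, with a log2 change of 0.31 (SE 0.14, adjusted p = 0.150). In MDA-MB-231 it measured 51.6, 47.9 and 47.0 CPM in CD44 WT replicates 1, 3 and unnumbered, and 33.4, 39.1 and 55.4 CPM in CD44 KO replicates 1, 2 and 3. Those groups overlapped, and the log2 change was -0.20 (SE 0.14, adjusted p = 0.439). The difference of the changes between the lines was 0.52 on the log2 scale (SE 0.20, adjusted p = 0.117), and it was 0.73 (adjusted p = 0.00829) without MDA-MB-231 CD44 KO replicate 3.

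The sequences upstream of these genes are shown because NF-kappaB, the transcription factor through which cytokines switch on ICAM1 and VCAM1, binds near their starts. They are the 250 bases before the RefSeq start (GRCh38.p14, gene strand, 5′ to 3′), with matches in capitals to the kappa B consensus, the TATA box TATAAA, the AP-1 motif TGANTCA and the cAMP response element TGACGTCA, on either strand. The kappa B consensus was found in 5.21% of the 35116 windows of this length, TATAAA in 10.7%, TGANTCA in 6.57% and TGACGTCA in 1.65%. RefSeq windows were matched for 7 of the 10 members: ICAM1, VCAM1, ALCAM, MCAM, NECTIN2, NECTIN3 and L1CAM (2 windows).
VCAM1 (chr1:100719492-100719741, + strand): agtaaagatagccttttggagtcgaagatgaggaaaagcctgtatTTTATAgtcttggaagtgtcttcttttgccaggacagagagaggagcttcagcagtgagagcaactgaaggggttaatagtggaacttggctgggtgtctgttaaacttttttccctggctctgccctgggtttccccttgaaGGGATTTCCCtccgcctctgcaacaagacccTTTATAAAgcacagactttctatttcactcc
ICAM1 (chr19:10270870-10271119, + strand): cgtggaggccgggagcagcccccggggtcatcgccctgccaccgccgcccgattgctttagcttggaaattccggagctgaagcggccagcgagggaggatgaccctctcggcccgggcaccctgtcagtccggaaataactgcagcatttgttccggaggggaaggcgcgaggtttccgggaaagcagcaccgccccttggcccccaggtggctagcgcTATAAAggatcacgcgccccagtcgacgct
The VCAM1 window had a kappa B match 62 bases before the start and TATAAA 29 bases before it. TATAAA on the opposite strand overlapped that match 31 bases before the start, and a further opposite-strand match began 205 bases before it. The ICAM1 window had TATAAA 30 bases before the start and no match to the kappa B letters searched. The ICAM1 window lies inside the gene as GENCODE draws it, whose start is further upstream. No window of a member held TGANTCA, and those of ALCAM, NECTIN2, NECTIN3 and L1CAM held none of the motifs. A match in these letters is a description and not a binding site. Each motif was searched as a fixed pattern, so a window without a match may still hold a site with other letters.

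Genes that feed NF-kappaB and interferon signalling, such as receptors, kinases and Rel subunits, were called in few cases. Of 25 tested, 1 fell in Hs578T (4.0%, against 7.51% of all genes called) and 2 rose in MDA-MB-231 (8.0%, against 4.62%), with median log2 changes of -0.13 and 0.13. With 1 library left out, the counts ran from 0 to 4 and from 0 to 2, the highest Hs578T count coming without MDA-MB-231 CD44 WT replicate 1. NFKB1, which encodes the precursor of an NF-kappaB subunit, fell from 51.1 ± 2.09 to 38.9 ± 1.01 CPM in Hs578T (log2 change -0.39, adjusted p = 0.00685). In MDA-MB-231 the cytokine IL1B rose from 5.33 ± 2.06 to 21.4 ± 13.4 CPM (log2 change 1.99, adjusted p = 0.00453) and its receptor IL1R1 from 1.23 ± 0.685 to 3.11 ± 0.220 CPM (log2 change 1.33, adjusted p = 0.00641). These calls were held in 3, 8 and 3 of the 12 fits that left out 1 library, for NFKB1, IL1B and IL1R1.

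ITGA4 encodes the integrin alpha subunit of the main VCAM1 receptor, and it rose with VCAM1 in Hs578T. It measured 4.85, 12.8 and 24.6 CPM in CD44 WT replicates 1, 2 and 3 and 133, 129 and 121 CPM in CD44 KO replicates 1, 2 and 3. The groups were far apart, with a 9.17-fold higher level in CD44 KO (log2 change 3.20, SE 0.36, adjusted p = 5.51e-05). MDA-MB-231 libraries held at most 1 ITGA4 count. ITGB3, a beta subunit of integrins that bind L1CAM, fell from 12.6 ± 3.07 to 3.86 ± 0.987 CPM in Hs578T (log2 change -1.71, adjusted p = 0.00049), and ITGA5, the fibronectin receptor subunit, rose from 413 ± 36.5 to 621 ± 31.8 CPM (log2 change 0.59, adjusted p = 0.00101). LGALS3, a galectin that binds sugar chains of several adhesion proteins, rose from 61.7 ± 9.24 to 95.1 ± 6.52 CPM (log2 change 0.62, adjusted p = 0.004). In all, 3 of 13 binding partners tested rose and 1 fell in Hs578T, where 3.64% of all genes tested were called higher and 3.86% lower, and 2 rose in MDA-MB-231, where 1.97% of all genes were called higher. With 1 library left out, 3 to 4 were called in Hs578T and 1 to 3 in MDA-MB-231, the lowest without CD44 KO replicate 2 or 3 of MDA-MB-231. The 2 that rose in MDA-MB-231 were CD96, a lymphocyte receptor for a nectin-like protein, from 22.2 ± 5.17 to 51.3 ± 12.1 CPM (log2 change 1.20, adjusted p = 0.000788), and NRP1, a co-receptor that pairs with L1CAM, from 166 ± 27.4 to 261 ± 24.9 CPM (log2 change 0.65, adjusted p = 0.00185).

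Of 10 leukocyte markers, PTPRC moved with these genes in Hs578T. The summed level of 10 leukocyte markers was 1.95 to 2.72 CPM in CD44 WT and 4.62 to 6.02 CPM in CD44 KO libraries. PTPRC rose from 0.369 ± 0.179 to 3.78 ± 0.895 CPM (log2 change 3.33, adjusted p = 3.19e-05). The other 9 markers were below 1 CPM in each group. Lower means in CD44 KO than in CD44 WT were seen for CD3D (0.618 and 0.489 CPM in CD44 WT and CD44 KO), CD3E (0.520 and 0.323), CD14 (0.347 and 0.112) and FCER1G (0.314 and 0). Higher means in CD44 KO were seen for LYZ (0.0282 and 0.201), CD68 (0.0513 and 0.151) and CD79A (0.0462 and 0.0617). MS4A1 was at 0 in all 12 libraries, and TYROBP averaged 0 and 0.0473 CPM in CD44 WT and CD44 KO. The part of other cells in the VCAM1 and ITGA4 results was not tested.

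**Figure D2:**
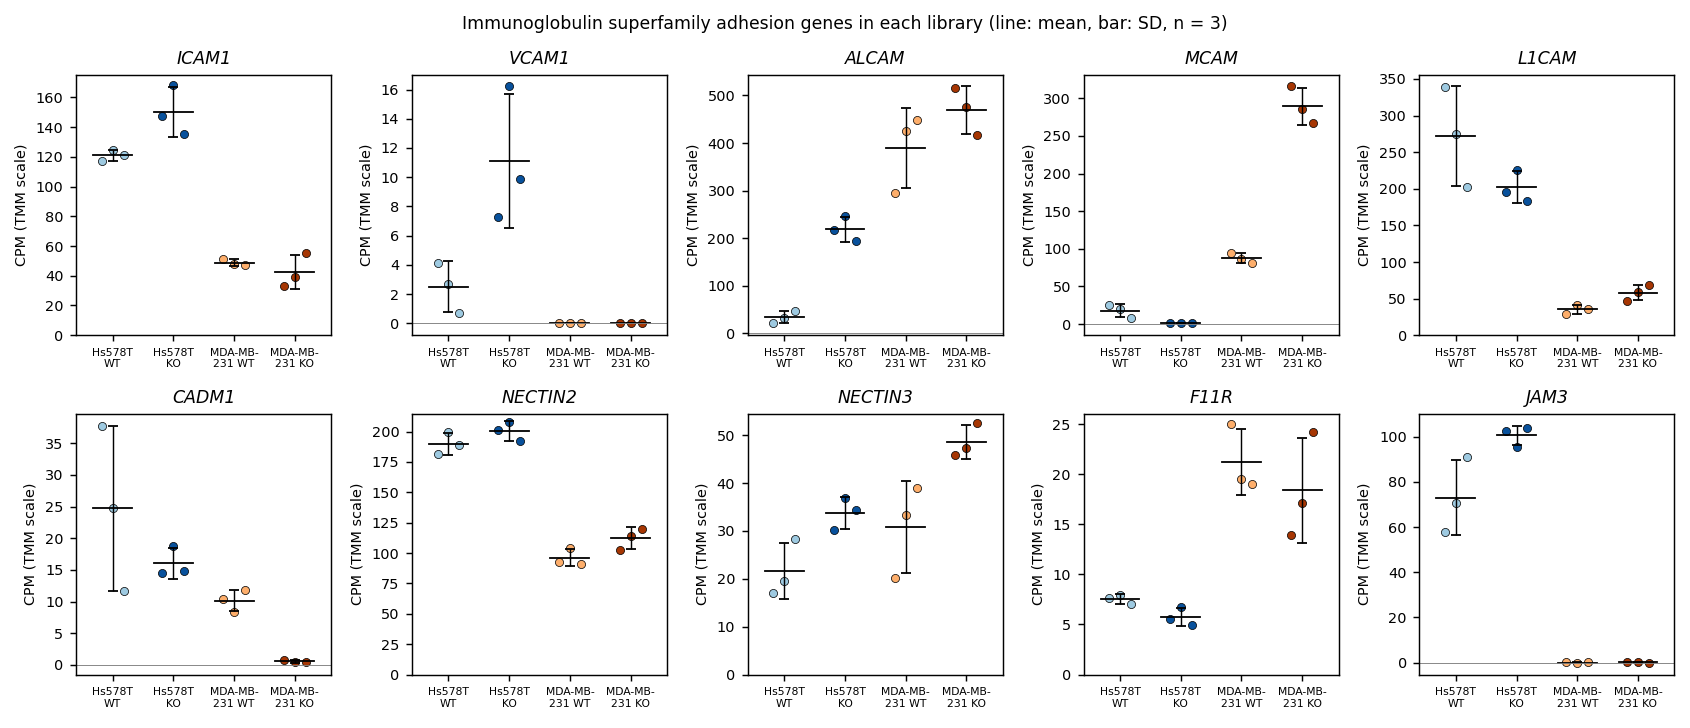
CPM (TMM scale, linear axes that start at or just below 0) of the 10 adhesion genes in each of the 12 libraries, by line and CD44 status, with the mean as a line and the SD as a bar (n = 3). ALCAM lies at 194 to 246 CPM in Hs578T CD44 KO against 21.9 to 47.6 CPM in CD44 WT, and VCAM1 is at 0 in all MDA-MB-231 libraries.

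ALCAM (ENSG00000170017.12, chr3:105366909-105576900, + strand), which binds itself on neighbouring cells and CD6 on T cells, rose in Hs578T toward its level in MDA-MB-231. It measured 21.9, 32.6 and 47.6 CPM in Hs578T CD44 WT replicates 1, 2 and 3 and 216, 246 and 194 CPM in CD44 KO replicates 1, 2 and 3. The highest CD44 WT library was far below the lowest CD44 KO library. The level was 6.46-fold higher in CD44 KO (log2 change 2.69, SE 0.22, adjusted p = 1.25e-06). The MDA-MB-231 values were 294, 426 and 449 CPM in CD44 WT replicates 1, 3 and unnumbered and 516, 475 and 416 CPM in CD44 KO replicates 1, 2 and 3. Those groups overlapped, with a log2 change of 0.27 (SE 0.20, adjusted p = 0.469). The change was larger in Hs578T than in MDA-MB-231 by 2.42 on the log2 scale (SE 0.30, adjusted p = 9.69e-05). The Hs578T and the difference calls were held in all 12 fits that left out 1 library, with log2 changes of 2.45 to 3.01 in Hs578T. CBLB was the 1 gene tested whose start lies within 1 Mb of that of ALCAM, and it was also called higher in Hs578T.

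MCAM (ENSG00000076706.16, chr11:119308529-119321521, - strand), known from melanoma and blood vessel endothelium, fell to near 1 CPM in Hs578T CD44 KO cells and rose in MDA-MB-231 CD44 KO cells. In Hs578T it measured 25.5, 19.8 and 8.46 CPM in CD44 WT replicates 1, 2 and 3 and 0.963, 1.48 and 1.62 CPM in CD44 KO replicates 1, 2 and 3. Each CD44 KO library was below each CD44 WT library, and the level was 13.2-fold lower (log2 change -3.72, SE 0.36, adjusted p = 6.04e-06). Its MDA-MB-231 levels were 95.04, 86.8 and 81.0 CPM in CD44 WT replicates 1, 3 and unnumbered and 316, 286 and 267 CPM in CD44 KO replicates 1, 2 and 3. These groups did not overlap either, and the level was 3.31-fold higher (log2 change 1.73, SE 0.22, adjusted p = 0.00016). The difference of the changes, Hs578T minus MDA-MB-231, was -5.45 on the log2 scale (SE 0.42, adjusted p = 1.88e-06). All 3 calls were held in each of the 12 fits that left out 1 library.

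TIE1 and KDR, of 8 endothelial markers, moved with MCAM in MDA-MB-231. The summed level of the 8 markers was 19.0 to 23.4 CPM in CD44 WT and 54.5 to 68.5 CPM in CD44 KO libraries of MDA-MB-231, and 16.7 to 18.6 CPM over the 6 Hs578T libraries. In MDA-MB-231, the receptor TIE1 rose from 12.4 ± 2.48 to 45.9 ± 7.56 CPM and KDR, the main VEGF receptor, from 5.97 ± 1.87 to 11.9 ± 1.67 CPM (adjusted p = 0.000227 and 0.00985). PECAM1 measured 2.02 ± 0.863 and 2.59 ± 1.21 CPM in CD44 WT and CD44 KO (adjusted p = 0.598). CDH5 and VWF, which define endothelium, were below 1 CPM there, and TEK, CLDN5 and EMCN were at 0. In Hs578T, where MCAM fell, TEK fell from 3.21 ± 1.03 to 0.193 ± 0.0471 CPM and KDR rose from 0.0737 ± 0.0698 to 1.44 ± 0.252 CPM. The part of these genes in the MCAM result was not tested. Of the 32 genes tested that start within 1 Mb of the start of MCAM, 1 was called in Hs578T (TRIM29, lower) and none in MDA-MB-231 by edgeR, and their median log2 changes were 0.04 and -0.05.

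The window before the RefSeq start of MCAM is shown because MCAM was the member called in both lines. It lies inside the gene as GENCODE draws it, and it held the cAMP response element 32 bases before the start.
MCAM (chr11:119317131-119317380, - strand): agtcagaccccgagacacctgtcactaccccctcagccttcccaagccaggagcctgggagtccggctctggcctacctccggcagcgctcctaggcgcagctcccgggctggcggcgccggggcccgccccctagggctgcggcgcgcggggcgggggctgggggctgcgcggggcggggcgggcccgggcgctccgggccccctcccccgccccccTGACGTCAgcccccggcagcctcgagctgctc
This window was 79.6% G and C, against a median of 58.0% over all windows of this length, and the ALCAM, ICAM1 and VCAM1 windows were 68.8%, 66.0% and 46.0%.

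CADM1 (ENSG00000182985.17, chr11:115169218-115504957, - strand), a nectin-like molecule that binds itself and is a known tumour suppressor in lung cancer, fell close to 0 in MDA-MB-231 CD44 KO cells. It measured 10.4, 8.35 and 11.8 CPM in MDA-MB-231 CD44 WT replicates 1, 3 and unnumbered and 0.847, 0.530 and 0.395 CPM in CD44 KO replicates 1, 2 and 3. The groups lay far apart, with a 16.96-fold lower level in CD44 KO (log2 change -4.08, SE 0.47, adjusted p = 6.12e-05). In Hs578T it measured 37.7, 24.8 and 11.6 CPM in CD44 WT replicates 1, 2 and 3 and 14.5, 18.8 and 14.8 CPM in CD44 KO replicates 1, 2 and 3. CD44 WT replicate 3 lay below all CD44 KO libraries, so the groups overlapped, and the log2 change was -0.63 (SE 0.29, adjusted p = 0.173). Without CD44 WT replicate 3 it was -0.96 (adjusted p = 0.00368), and without CD44 WT replicate 1 it was -0.18 (adjusted p = 0.780). The change was lower in MDA-MB-231 than in Hs578T by 3.46 on the log2 scale (SE 0.57, adjusted p = 0.00131), a call held in all 12 fits that left out 1 library. A gap of 3.80 Mb separates CADM1 from MCAM on chromosome 11. None of the 5 genes tested that start within 1 Mb of the start of CADM1 was called by edgeR in either line. The shares of all genes tested that were called were 7.51% in Hs578T and 4.62% in MDA-MB-231.

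EPB41L3 encodes a band-4.1 protein that binds the CADM1 tail, and it fell with CADM1 in MDA-MB-231. It measured 73.4, 137 and 143 CPM in CD44 WT replicates 1, 3 and unnumbered and 3.30, 3.23 and 5.04 CPM in CD44 KO replicates 1, 2 and 3. The level was 31.3-fold lower in CD44 KO (log2 change -4.97, SE 0.26, adjusted p = 2.46e-08). Hs578T libraries held at most 1 EPB41L3 count. Of 38 cytoplasmic linkers tested, 2 rose and 4 fell in MDA-MB-231, and 4 rose and 2 fell in Hs578T. In each line this was 15.8% of the linkers, where 4.62% and 7.51% of all genes tested were called in MDA-MB-231 and Hs578T. With 1 library left out, 3 to 6 were called in MDA-MB-231, the lowest without CD44 WT replicate 3 or CD44 KO replicate 1 or 3 of that line, and 3 to 8 in Hs578T, the lowest without CD44 WT replicate 2 or CD44 KO replicate 1 or 3 of Hs578T. The other linkers that fell in MDA-MB-231 were PICK1, a PDZ protein of nectins and JAMs (log2 change -1.77), the polarity protein PARD6B (-0.85) and the Rac exchange factor TIAM1 (-0.65), while PARD3, a polarity protein that binds JAM and nectin tails, rose by 0.54. PARD6B was called in 4 and TIAM1 in 3 of the 12 fits that left out 1 library.

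**Figure D3:**
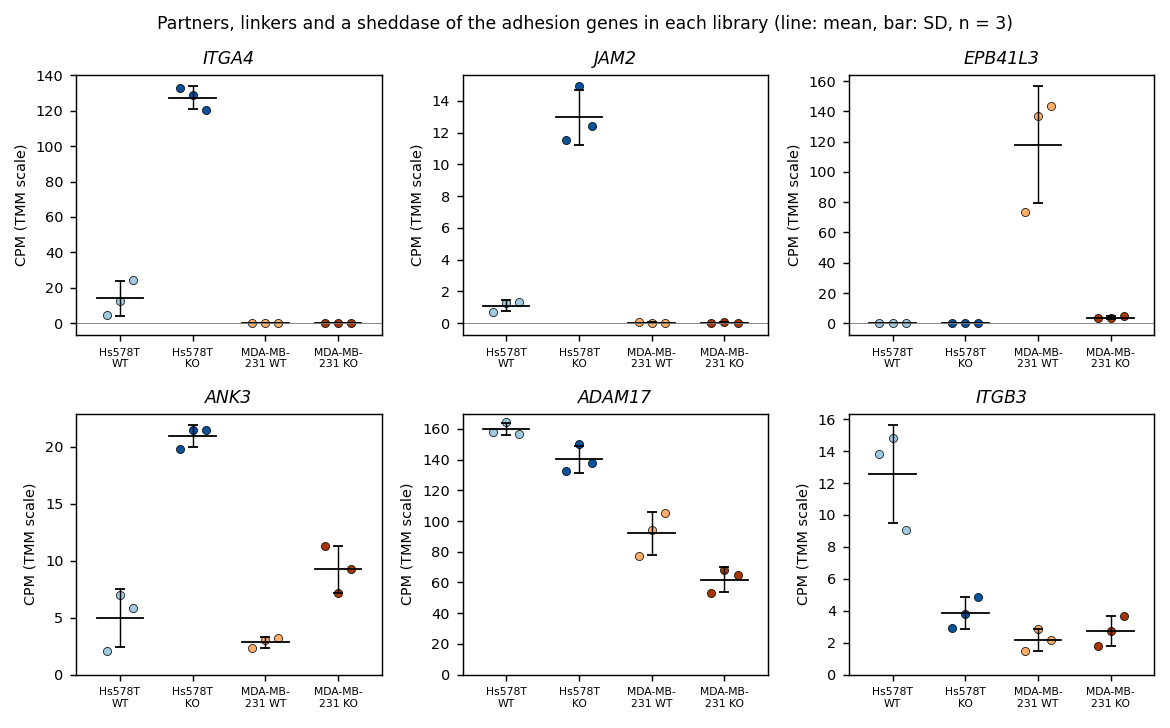
CPM (TMM scale) in each of the 12 libraries of 6 genes that bind, anchor or cut the adhesion proteins, with the mean as a line and the SD as a bar (n = 3). ITGA4 and JAM2 are near 0 in MDA-MB-231, EPB41L3 is near 0 in Hs578T, and ANK3 is higher in CD44 KO than in CD44 WT libraries of both lines.

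L1CAM (ENSG00000198910.13, chrX:153861514-153886174, - strand), a neural adhesion molecule that binds itself, integrins and ankyrins, was among the highest members in Hs578T. It measured 339, 275 and 202 CPM in Hs578T CD44 WT replicates 1, 2 and 3 and 196, 226 and 184 CPM in CD44 KO replicates 1, 2 and 3. CD44 WT replicate 3 lay within the CD44 KO range, and the log2 change was -0.43 (SE 0.17, adjusted p = 0.111). In MDA-MB-231 it measured 29.5, 41.2 and 36.0 CPM in CD44 WT replicates 1, 3 and unnumbered and 46.8, 59.7 and 68.0 CPM in CD44 KO replicates 1, 2 and 3. All CD44 KO libraries were above the CD44 WT libraries there, with a log2 change of 0.71 (SE 0.18, adjusted p = 0.0219), which was called with DESeq2 (adjusted p = 0.00259) and without Hs578T CD44 WT replicate 3 (adjusted p = 0.00789). The difference of the changes, Hs578T minus MDA-MB-231, was -1.14 on the log2 scale (SE 0.25, adjusted p = 0.00919). That call was lost in 10 of the 12 fits that left out 1 library, where it was held only without Hs578T CD44 WT replicate 3 or MDA-MB-231 CD44 KO replicate 1. The 46 genes tested that start within 1 Mb of the start of L1CAM had a median log2 change of -0.41 in Hs578T. Of them, 9 were called lower and 1 (PNMA5) higher, where 3.86% of all genes tested were called lower and 3.64% higher. In MDA-MB-231 the median of these neighbours was -0.14, with 1 (CTAG2) called lower, where 2.65% of all genes tested were.

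ANK3, an ankyrin that ties L1 family proteins to the spectrin skeleton, rose in both lines. It measured 2.08, 6.99 and 5.84 CPM in Hs578T CD44 WT replicates 1, 2 and 3 and 19.8, 21.5 and 21.5 CPM in CD44 KO replicates 1, 2 and 3 (log2 change 2.095, SE 0.29, adjusted p = 0.000143). In MDA-MB-231 it measured 2.31, 3.00 and 3.21 CPM in CD44 WT replicates 1, 3 and unnumbered and 11.3, 7.15 and 9.28 CPM in CD44 KO replicates 1, 2 and 3 (log2 change 1.68, SE 0.32, adjusted p = 0.00363). The groups were apart in each line. The MDA-MB-231 call was lost without CD44 WT replicate 1 or 3 or CD44 KO replicate 1 or 3 of that line. ANK2, a related ankyrin, rose in Hs578T from 6.37 ± 4.28 to 18.6 ± 2.89 CPM (log2 change 1.52, adjusted p = 0.00594), and ANK1, the ankyrin first known from red cells, fell from 60.8 ± 0.586 to 39.6 ± 3.55 CPM (log2 change -0.62, adjusted p = 0.00939), so the ankyrins did not move one way. The call of ANK2 was held in 8 and that of ANK1 in 4 of the 12 fits that left out 1 library.

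NECTIN2 and NECTIN3 bind other nectins and nectin receptors of lymphocytes, and sit at adherens junctions. NECTIN2 (ENSG00000130202.9, chr19:44846175-44889228, + strand) measured 182, 200 and 189 CPM in Hs578T CD44 WT and 202, 208 and 192 CPM in CD44 KO replicates 1, 2 and 3. The corresponding MDA-MB-231 values were 92.9, 104 and 91.1 CPM in CD44 WT replicates 1, 3 and unnumbered and 103, 114 and 120 CPM in CD44 KO replicates 1, 2 and 3. The groups overlapped in both lines, with log2 changes of 0.08 (SE 0.09, adjusted p = 0.619) and 0.23 (SE 0.09, adjusted p = 0.122). NECTIN3 (ENSG00000177707.10, chr3:111070071-111275563, + strand) measured 17.1, 19.6 and 28.3 CPM in Hs578T CD44 WT and 30.2, 36.9 and 34.4 CPM in CD44 KO replicates 1, 2 and 3. MDA-MB-231 libraries had 20.2, 33.3 and 38.9 CPM in CD44 WT replicates 1, 3 and unnumbered and 45.8, 47.3 and 52.6 CPM in CD44 KO replicates 1, 2 and 3. The CD44 KO libraries were above the CD44 WT libraries in both lines, but neither log2 change, 0.65 (SE 0.21, adjusted p = 0.0480) in Hs578T and 0.66 (SE 0.20, adjusted p = 0.0534) in MDA-MB-231, was called. NECTIN3 was called in Hs578T without CD44 WT replicate 3 (0.88, adjusted p = 0.00979) or with MDA-MB-231 CD44 WT replicate 1 left out (0.65, adjusted p = 0.00762). A gap of 5.49 Mb separates ALCAM from NECTIN3 on chromosome 3. CD96 is among the 6 genes tested that start within 1 Mb of the start of NECTIN3.

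The junctional adhesion molecules F11R and JAM3, which sit at tight junctions and bind PDZ proteins, were not called in either line. F11R (ENSG00000158769.17, chr1:160995211-161021348, - strand) measured 7.63, 7.98 and 7.02 CPM in Hs578T CD44 WT and 5.54, 6.72 and 4.95 CPM in CD44 KO replicates 1, 2 and 3. MDA-MB-231 had 25.0, 19.6 and 19.1 CPM in CD44 WT replicates 1, 3 and unnumbered and 13.9, 17.1 and 24.2 CPM in CD44 KO replicates 1, 2 and 3. The groups were apart in Hs578T and overlapped in MDA-MB-231, with log2 changes of -0.39 (SE 0.21, adjusted p = 0.258) and -0.21 (SE 0.18, adjusted p = 0.527). JAM3 (ENSG00000166086.12, chr11:134068925-134152001, + strand) measured 57.7, 70.6 and 90.8 CPM in Hs578T CD44 WT and 102, 95.6 and 104 CPM in CD44 KO replicates 1, 2 and 3. All CD44 KO libraries were higher, with a log2 change of 0.46 (SE 0.14, adjusted p = 0.0431), which was called without CD44 WT replicate 3 (0.65, adjusted p = 0.00446). In MDA-MB-231 the CD44 WT libraries held 2 JAM3 counts in all and the CD44 KO libraries 5. By counts scaled for depth, JAM3 was 1268 times as high in Hs578T as in MDA-MB-231 among CD44 WT cells (exact 95% counting interval 350.5 to 10470) and 816.2 times among CD44 KO cells (349.5 to 2515).

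JAM2 encodes the usual partner of JAM3, and it rose in Hs578T. It measured 0.694, 1.23 and 1.35 CPM in CD44 WT and 11.6, 14.9 and 12.5 CPM in CD44 KO replicates 1, 2 and 3. The groups were apart by a wide margin, with a 11.98-fold higher level in CD44 KO (log2 change 3.58, SE 0.27, adjusted p = 5.26e-07). MDA-MB-231 libraries held at most 1 JAM2 count. Of 42 other immunoglobulin superfamily adhesion genes tested, 4 rose and 1 fell in Hs578T, where 3.64% of all genes were called higher and 3.86% lower. The others that rose were EMB, a basigin relative that guides monocarboxylate transporters, from 0.393 ± 0.0872 to 8.32 ± 1.64 CPM (log2 change 4.37, adjusted p = 1.98e-07), ICAM2, an integrin ligand of endothelium and platelets (0.74), and IGSF8, a tetraspanin partner (0.61). BCAM, the laminin receptor that carries the Lutheran blood group, fell from 58.8 ± 6.23 to 26.7 ± 4.73 CPM (log2 change -1.13, adjusted p = 0.000457). In MDA-MB-231, where 1.97% of all genes were called higher and 2.65% lower, 2 of the 42 rose and 2 fell. They were IGSF3 (1.18) and CNTN1, a neural contactin (2.17), and MPZL3 (-2.75) and MPZL2 (-2.17), relatives of the myelin adhesion protein. Apart from IGSF3, these genes averaged under 2 CPM. Without 1 library, the number called was 3 to 6 in Hs578T and 1 to 5 in MDA-MB-231, the lowest without CD44 WT replicate 1 or CD44 KO replicate 2 of Hs578T and without CD44 KO replicate 2 of MDA-MB-231.

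The remaining linkers called in Hs578T were the tight junction scaffold TJP3 (log2 change -2.104) and the polarity proteins PARD6G (1.75) and PRKCZ (0.76). Among 16 sheddases and their inhibitors tested, 1 rose in Hs578T and 1 rose and 1 fell in MDA-MB-231, or 6.25% and 12.5% of them against 7.51% and 4.62% of all genes. TIMP3, a metalloprotease inhibitor, rose in Hs578T from 66.6 ± 6.65 to 113 ± 23.4 CPM (log2 change 0.76, adjusted p = 0.00603). In MDA-MB-231 the protease BACE1 rose from 28.2 ± 2.01 to 42.6 ± 3.15 CPM (log2 change 0.59, adjusted p = 0.00184), and ADAM17, which sheds ICAM1, VCAM1 and ALCAM among others, fell from 92.1 ± 14.1 to 61.8 ± 7.96 CPM (log2 change -0.57, adjusted p = 0.00547). Without 1 library, the number of sheddases called was 0 to 2 in Hs578T and 0 to 3 in MDA-MB-231, and ADAM17 was called in 5 of the 12 fits. Over all lists, 14 of the 33 calls were held in every fit that left out 1 library: EMB, JAM2, BCAM, ITGA4, ITGB3, ITGA5, ANK3, PARD6G and TJP3 in Hs578T and IGSF3, CD96, PARD3, PICK1 and EPB41L3 in MDA-MB-231. Without Hs578T CD44 WT replicate 3, the Hs578T calls of ICAM2 (log2 change 0.68), LGALS3 (0.51), ANK1 (-0.62), PRKCZ (0.68), TIMP3 (0.69) and NFKB1 (-0.40) were lost, at adjusted p of 0.0147 to 0.0232. Without MDA-MB-231 CD44 WT replicate 1, the MDA-MB-231 calls of CNTN1 (2.04), ANK3 (1.55), IL1B (1.73) and IL1R1 (1.00) were lost, at adjusted p of 0.0160 to 0.0278. With each line fitted alone, the MDA-MB-231 calls of NRP1, PARD3, PARD6B, TIAM1, BACE1, ADAM17, IL1B and IL1R1 were lost. The Hs578T call of ANK2 was lost in that fit too. These lists were chosen with earlier results of these data known.

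Between the CD44 WT cells of the lines, 7 of the 8 members with a value differed, where 61.5% of all genes tested were called. ICAM1 (log2 difference 1.31, Hs578T over MDA-MB-231), L1CAM (2.93), CADM1 (1.29) and NECTIN2 (0.99) were higher in Hs578T. ALCAM (-3.52), MCAM (-2.28) and F11R (-1.49) were higher in MDA-MB-231. NECTIN3 did not pass the test (-0.51, SE 0.21, adjusted p = 0.0375), and it did when either Hs578T CD44 WT replicate 3 (-0.75) or MDA-MB-231 CD44 WT replicate 1 (-0.74) was left out. CADM1 was lost without Hs578T CD44 WT replicate 1 (0.85, adjusted p = 0.0112). The libraries of the groups did not overlap for 6 of these 8 members, and for 71.8% of all genes tested. Between CD44 KO and CD44 WT they did not overlap for 7 of 10 members in Hs578T and 4 of 8 in MDA-MB-231, and for 37.3% and 25.5% of all genes tested.

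To compare levels between genes, CPM was divided by exonic length in kb. In Hs578T CD44 WT cells NECTIN2 was highest at 50.7 ± 2.40 CPM per kb, followed by L1CAM at 37.4 ± 9.43, ICAM1 at 32.7 ± 1.02 and JAM3 at 13.4 ± 3.06, and VCAM1 was lowest at 0.416 ± 0.289. L1CAM and ICAM1 overlapped, as did the successive neighbours from ALCAM (4.74 ± 1.79) through NECTIN3, MCAM and CADM1 to F11R (1.49 ± 0.0953). In Hs578T CD44 KO cells the order was NECTIN2 (53.5 ± 2.17), ICAM1 (40.6 ± 4.52), ALCAM (30.5 ± 3.67) and L1CAM (27.8 ± 2.98), of which ALCAM and L1CAM overlapped, and MCAM was lowest at 0.182 ± 0.0467. In MDA-MB-231 CD44 WT cells ALCAM led at 54.3 ± 11.6 CPM per kb, followed by NECTIN2 at 25.6 ± 1.88, and ICAM1 (13.2 ± 0.655) and MCAM (11.8 ± 0.952), which overlapped. In MDA-MB-231 CD44 KO cells MCAM stood next to ALCAM, at 39.0 ± 3.31 against 65.3 ± 6.95, and above NECTIN2 at 30.0 ± 2.35, with no overlap between these neighbours. CADM1 was at 0.0536 ± 0.0211 in that group, and JAM3 and VCAM1 were the lowest in both MDA-MB-231 groups.

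**Figure D4:**
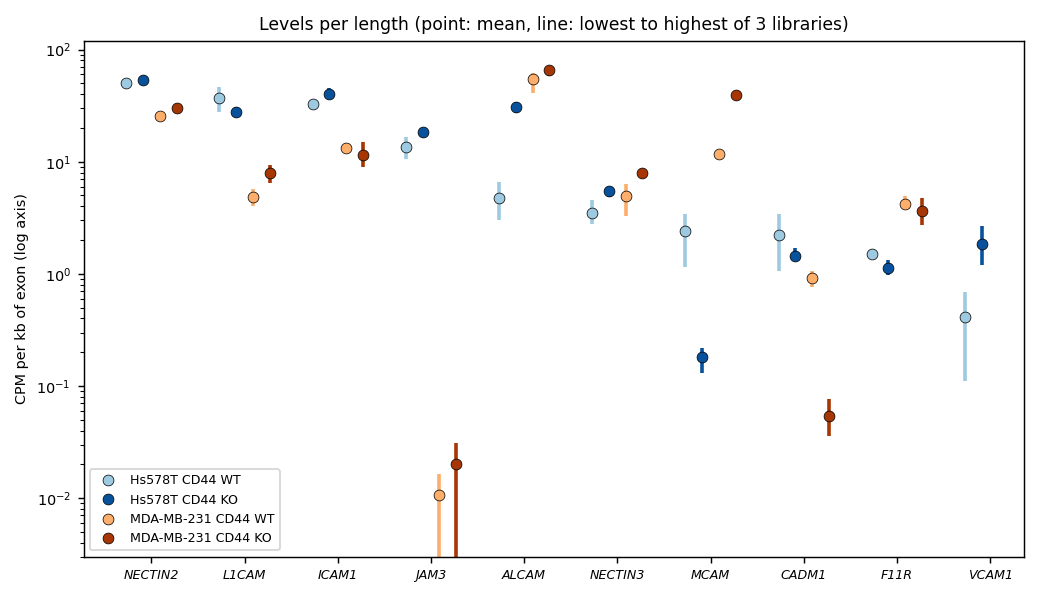
Mean CPM per kb of exon (log axis) of the 10 adhesion genes in the 4 groups, with a line from the lowest to the highest of 3 libraries; VCAM1 is at 0 in MDA-MB-231 and not drawn there, and the JAM3 lines for MDA-MB-231 end at the axis because 1 library of each group is at 0. ALCAM in Hs578T moves from 4.74 to 30.5, and MCAM spans 0.182 to 39.0 over the groups.

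The genes most like each called member were those with the highest Pearson r of log2 CPM over the 12 libraries, which share line and CD44 status and so are given as a description. For ALCAM they included MCTP1 (r = 0.995) and CDH18 (0.987). For MCAM they were SCAMP5 (0.987), CCDC3 (0.984) and PRICKLE1 (0.984). For CADM1 they were ATP10A (0.990), TMEM9B (0.984) and GTF2H1 (0.976). For VCAM1 they were OR7C1 (0.994), GDA (0.993) and ESRG (0.993). No member was among them.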

How the data were processed

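RNA of 12 samples (3 per group) was made into stranded mRNA libraries and sequenced in pairs on a shared lane. Per the labels and file headers, the authors aligned reads to GRCh38 (HISAT2 2.1.0) and deposited raw counts of read pairs per GENCODE gene, counted by strand with featureCounts 1.6.2. Library totals were 10257586 to 19725543. Following the study's methods, a gene was kept if it passed 1 CPM in 2 or more libraries. The methods name an exonic length under 300 nt, which was read as dropping such genes, so genes of at least 300 nt were kept (15836 of 58381). Counts were fitted over all 12 libraries with edgeR 4.0.16 (R 4.3.3; TMM factors, legacy quasi-likelihood fit, 4 group means), and genes were called where the Benjamini-Hochberg adjusted p did not exceed 0.01. Standard errors are the log2 change divided by the square root of the F value. CPM values are on the TMM scale.

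The members, the gene lists and the tests were chosen with earlier results of these data known. All 10 members are named, and of each list the genes called in a line. For each called member the 3 genes with the highest r are named, except 1 gene that is not reported here. CBLB, TRIM29, PNMA5, CTAG2 and the cAMP response element were picked after their values or letters were seen. A member with at most 3 counts in every library of a line got no fold change there. Against a group with 0 counts a lower bound was set with 3 counts over that group, a group with a few counts was given as a ratio with its counting interval, and intervals and floors cover counting error only. The edgeR fit was tested on simulated counts. Alternatives were DESeq2 1.42.0, other scalings, filters and thresholds, replicate blocks and leaving out each library. The deposited table gave no replicate number for 1 library. No protein sequences were used here. The replicate check of counts found no pair of libraries within counting error.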

Additional observations from a re-analysis of the deposited data

Results flagged for a closer look

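For 4 members the CD44 KO change differed between Hs578T and MDA-MB-231 by edgeR's test of the difference itself (Hs578T change minus MDA-MB-231 change, log2), out of 8 members that could be tested and with 4.12% of all genes tested called. MCAM differed by -5.45 (adjusted p = 1.88e-06), with all CD44 KO libraries lower than CD44 WT in Hs578T and all higher in MDA-MB-231. CADM1 differed by 3.46 (adjusted p = 0.00131), since it was lower in every MDA-MB-231 CD44 KO library and overlapped in Hs578T. ALCAM differed by 2.42 (adjusted p = 9.69e-05), since it was higher in every Hs578T CD44 KO library and overlapped in MDA-MB-231. L1CAM differed by -1.14 (adjusted p = 0.00919), and it was called in neither line alone. The first 3 calls were held in all 12 fits that left out 1 library, over which the difference was -5.78 to -5.10 for MCAM, 3.12 to 3.90 for CADM1 and 2.18 to 2.74 for ALCAM. The L1CAM difference was -1.31 to -0.95 over those fits and was called in 2 of them.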

How the results depend on the processing

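The number of members called in Hs578T was 3, and it was 7 with no filter on low counts, 5 at an adjusted p of at most 0.05, 2 with DESeq2 and 2 to 6 when 1 library was left out, the highest without Hs578T CD44 WT replicate 3. In MDA-MB-231 it was 2, and it was 4 with no filter and 2 to 3 when 1 library was left out. For the difference between the lines it was 4, with 3 to 4 when 1 library was left out, and between the CD44 WT groups it was 7, with 6 to 8. ALCAM and MCAM kept their Hs578T calls, and MCAM and CADM1 their MDA-MB-231 calls, in each of the 21 alternative fits run. Over all genes, the counts called were 1189 in Hs578T (605 to 2253 over the alternatives), 731 in MDA-MB-231 (190 to 1518), 653 for the difference (281 to 1670) and 9742 between the CD44 WT groups (5817 to 11257). The causes were not tested.

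The difference between the lines changed sign for NECTIN3, from -0.0069 to 0.00234 with a filter of at least 10 counts, and ran from -0.206 to 0.229 when 1 library was left out. For F11R it ran from -0.333 to 0.0511, and was positive only without MDA-MB-231 CD44 KO replicate 3. None of these values was called by edgeR. Of the fold changes of members, 267 of the other alternatives' values kept direction and side of the threshold, 9 gained a call, 5 lost one and 1 changed sign, and with 1 library left out these numbers were 378, 8, 17 and 5. Of 40 mean levels, 39 moved by less than the SD on the library-size scale, and ICAM1 in Hs578T CD44 WT moved to 125.6 CPM. Of the 33 calls of list genes, 12 were held in all settings, which were added for them after the data were seen, as was the newer quasi-likelihood fit, which left the 4 member counts at 3, 2, 4 and 7.

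In Hs578T, replicate numbers of the titles did not pair the libraries. Same-numbered CD44 WT and CD44 KO libraries had correlations of deviations of -0.0957 to 0.164 by title number and 0.00793 to 0.164 by consecutive label numbers, and of 6 Hs578T libraries 0 correlated best with their own title number and 6 with their own consecutive number. In MDA-MB-231, the pairs by title number were also pairs by consecutive number. There, 4 of 6 libraries correlated best with their own consecutive number. A replicate block by title number (11 libraries, the unnumbered one left out) gave 2 members called in Hs578T, 2 in MDA-MB-231 and 2 for the difference (ALCAM and MCAM), so that VCAM1 in Hs578T (adjusted p = 0.0124) and the differences of CADM1 (0.0117) and L1CAM (0.0116) were no longer called. A block by consecutive numbers gave 3, 3, 4 and 7, with L1CAM also called in MDA-MB-231 (0.70, adjusted p = 0.00424) and VCAM1 at 0.000655. Of the list genes held in every fit that left out 1 library, CD96 and PARD3 were lost with the title block. The title block was not run for the CD44 WT groups, and the fit of each line alone cannot give the difference or the CD44 WT comparison. At this depth, JAM3 and VCAM1 changes in MDA-MB-231 were not detectable.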
